A study of Mus musculus with 9 samples.

Results

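The genes described here are 10 genes of the smooth muscle cell (SMC) contractile program in cultured adipose-derived stem cells (ASCs): Acta2, Tagln, Cnn1, Myh11, Actg2, Myocd, Smtn, Lmod1, Des and Mylk. They were chosen by name, as the contractile proteins commonly used as SMC markers together with myocardin, and all 10 were found among the 54532 genes of the deposited count table. The ASCs came from C57BL/6 mice and were cultured from 3 fat depots, giving Sub-ASCs from subcutaneous, Ab-ASCs from abdominal and PVASCs from perivascular adipose tissue, with 3 mRNA libraries per group and 9 in all. All groups shared the same stem cell medium, which per the study's methods held serum, LIF and FGF. The methods describe SMC differentiation with TGF-β1 for other experiments and do not mention it for these libraries. The values are therefore taken as those of untreated cultures. The study's methods give a range of passages for the sequenced cells, but not the passage of each culture. The age and sex of the mice and whether libraries of a group came from separate animals or cultures are not given in the sources used here. The p-values therefore measure the spread between these libraries, which may be technical.

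SMCs contract when myosin, switched on by phosphorylation of its light chain, pulls on filaments of smooth muscle actin. Many genes of this apparatus are activated by serum response factor (SRF), which binds a short DNA element called the CArG box and is driven to contractile genes by its coactivators, myocardin and the myocardin-related factors. In the usual account of SMC differentiation, Acta2 (α-SMA), Tagln (SM22α) and Cnn1 (Calponin) are early markers, whereas Myh11, Smtn and Lmod1 are late ones. Acta2, Tagln and Cnn1 are also expressed by myofibroblasts and many cultured stromal cells, whereas Myh11 and Myocd are more restricted to muscle.

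The CArG box is the sequence through which SRF and myocardin act on contractile genes, and Acta2 is the most abundant of the 10 genes here. RefSeq promoters (GRCm38.p6) were at hand for 6 of the 10 genes, namely Acta2, Cnn1, Lmod1, Des, Smtn and Mylk. In the 250 bases before the start, read on both strands, none of the 6 held an exact CArG box, which was found in 1.47% of 32851 promoters. With 1 letter of the core replaced, the Acta2 promoter held 2 such sites and the other 5 promoters none. At least 1 site, exact or with 1 letter replaced, was found in 8.59% of all promoters, and 2 or more in 0.67%. Both Acta2 sites are shown 5′ to 3′ on the minus strand, with the CArG-like letters in capitals, and lie 84 and 34 bases before the RefSeq start.
Acta2 distal site, chr19:34255438-34255467: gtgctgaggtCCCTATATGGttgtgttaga
Acta2 proximal site, chr19:34255388-34255417: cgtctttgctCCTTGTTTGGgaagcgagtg
A match describes letters only. Factor binding was not measured in these libraries.

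Library totals were 23781019 to 26872579 reads in Sub-ASCs, 20524173 to 23832828 in Ab-ASCs and 27136829 to 29881036 in PVASCs. A count of 3 reads corresponded to 0.0917 to 0.161 CPM, reads scaled to a common library size. The 9 markers of adipose stromal cells each had more than 3 reads in every library, although their summed level was 6228 to 6263 CPM in Sub-ASCs against 1898 to 2007 in Ab-ASCs and 2552 to 2653 in PVASCs. Members of this list went both ways, with 3 higher (among them Thy1) and 6 lower (among them Pdgfra and Ly6a) in PVASCs against Sub-ASCs. Of all genes tested, 34.7% were higher and 35.7% lower in that comparison. In Ab-ASCs against Sub-ASCs 2 of the list were higher and 7 lower, where 37% and 38.3% of all genes were. Ab-ASC libraries varied most among themselves, with a biological coefficient of variation of 12.3% against 5.70% in Sub-ASCs and 3.86% in PVASCs. Below, levels between genes are compared as FPKM, which scales reads by gene length and library total, and groups are compared as CPM with TMM scaling.

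The contractile genes were highest in Ab-ASCs, intermediate in PVASCs and lowest in Sub-ASCs. This order held for all 9 members with enough reads to be tested, from the actins to myosin heavy chain, whereas Myocd itself was close to the limit of detection in every group. Together the 10 genes took 0.519% ± 0.0427 (SD, n = 3) of all reads in Ab-ASCs, 0.335% ± 0.00776 in PVASCs and 0.0119% ± 0.000259 in Sub-ASCs. In these bulk cultures, fewer expressing cells and less RNA per cell cannot be told apart. The plot of FPKM by library shows all 10 genes.

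**Figure D1:**
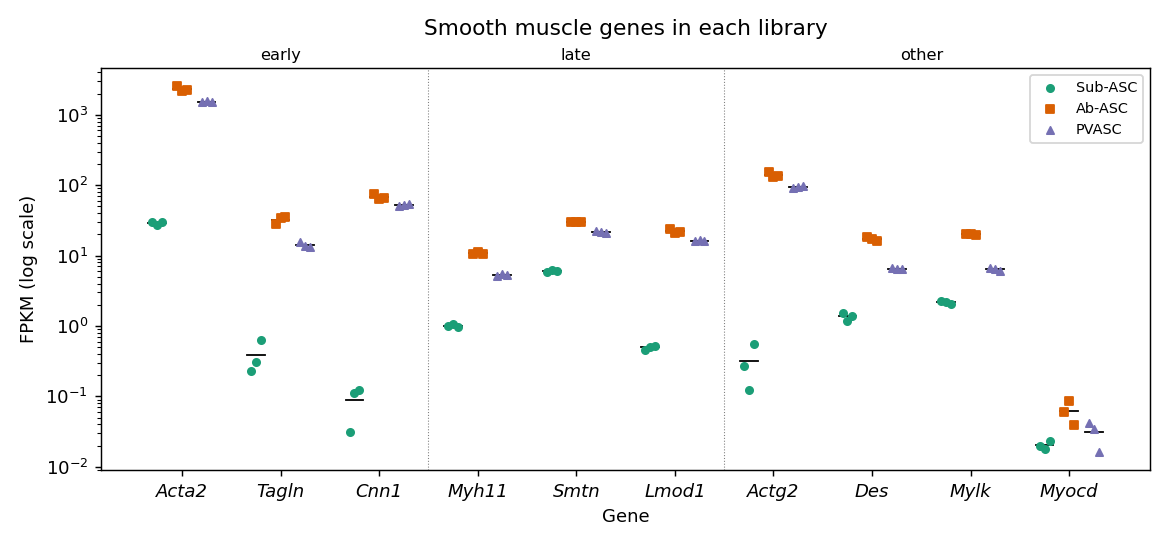
FPKM (log axis) of the 10 genes in each of the 9 libraries, by group. Each point is 1 library and each short line the mean of 3. For the 9 tested genes the 3 groups are separate, in the order Sub-ASC, PVASC, Ab-ASC, while the points of Myocd lie below 0.1 FPKM in every library.

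Between PVASCs and Sub-ASCs, 9 of the 9 tested members were higher in PVASCs (edgeR quasi-likelihood test, adjusted p below 0.05), where 34.7% of all 16526 genes tested were higher, 35.7% lower and 70.4% differed in either direction. Between Ab-ASCs and Sub-ASCs, 9 of 9 were higher in Ab-ASCs, against 37% of all genes higher, 38.3% lower and 75.3% in either direction. Between PVASCs and Ab-ASCs, 9 of 9 were lower in PVASCs, against 32.1% of all genes lower, 24.7% higher and 56.9% in either direction. With an absolute log2 fold change of 1 or more also required, 9 members remained in PVASCs against Sub-ASCs, 9 in Ab-ASCs against Sub-ASCs and 4 in PVASCs against Ab-ASCs (Tagln, Myh11, Des and Mylk), where 32.2%, 37.8% and 15.4% of all genes did. In a test for any difference among the 3 groups, 9 of 9 passed, against 84.6% of all genes. In each of the 3 comparisons the libraries of the groups did not overlap for any of the 9 members, which was also so for 77.3%, 76.5% and 63.9% of all genes, respectively. The median log2 fold change over the 9 members was 4.87 in PVASCs against Sub-ASCs, 5.54 in Ab-ASCs against Sub-ASCs and -0.82 in PVASCs against Ab-ASCs, where the medians over all genes were -0.01, -0.03 and -0.06. The 3 comparisons share their libraries and are not independent of each other.

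**Figure D2:**
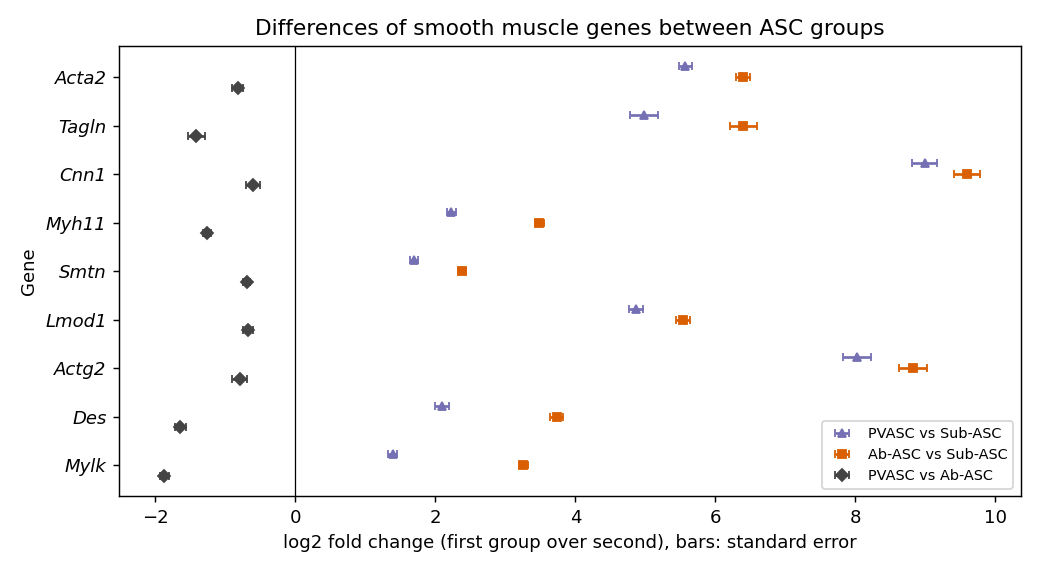
Log2 fold changes of the 9 tested members in the 3 comparisons, with bars of 1 standard error, as fitted by edgeR over 9 libraries. Members range from 1.39 (Mylk) to 8.99 (Cnn1) in PVASCs against Sub-ASCs, and all lie below 0 in PVASCs against Ab-ASCs, between -1.87 and -0.60.

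Acta2, which encodes the α-actin of vascular smooth muscle, lies on chr19:34241090-34255336, minus strand, as listed in the files. Its level was 55.0, 49.4 and 53.8 CPM in the 3 Sub-ASC libraries, 2454, 2598 and 2464 CPM in PVASCs, and 5042, 4017 and 4249 CPM in Ab-ASCs. Each PVASC library was far above each Sub-ASC library and below each Ab-ASC library. The log2 fold change was 5.57 (SE 0.09, adjusted p = 8.93e-14) in PVASCs against Sub-ASCs, a 47.5-fold difference, and -0.82 (SE 0.08, adjusted p = 2.14e-06) against Ab-ASCs. By number of reads, Acta2 ranked 12 to 15 among all genes in Ab-ASC libraries, 17 to 18 in PVASC libraries and 3850 to 4207 in Sub-ASC libraries. It made up 78.7% to 80.6% of the reads of the 10 genes in Ab-ASCs and 81.4% to 82.2% in PVASCs, but 41.7% to 44.4% in Sub-ASCs.

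Tagln (chr9:45929619-45936058, minus strand) encodes SM22α, an actin-binding protein of the contractile filaments. It was measured at 0.472, 0.629 and 1.30 CPM in Sub-ASCs, from 11, 16 and 34 reads, at 28.4, 25.2 and 23.9 CPM in PVASCs, and at 60.9, 71.2 and 74.4 CPM in Ab-ASCs. The Sub-ASC libraries were near the bottom of the measured range and spread more, relative to their mean, than those of the other groups. The log2 fold change was 4.98 (SE 0.20, adjusted p = 2.61e-10) in PVASCs against Sub-ASCs and -1.41 (SE 0.12, adjusted p = 1.55e-06) against Ab-ASCs. In the GENCODE M21 annotation, 1349 of the 1988 exon bases of Tagln are also exon of genes on the opposite strand, chiefly Gm48529, an antisense gene. Whether reads were counted by strand is not given in the sources used here, so reads of Tagln and of these genes may not be told apart, and the level of Tagln relative to other genes is uncertain. Gm48529 itself stood at 0.733 ± 0.115 CPM (SD, n = 3) in Sub-ASCs, 2.80 ± 0.345 in PVASCs and 6.25 ± 0.674 in Ab-ASCs, in the same order as Tagln.

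Cnn1 (chr9:22099216-22109630, plus strand) encodes Calponin, which binds actin and restrains myosin's motor activity. It had the largest relative difference between groups among the members. Sub-ASC libraries held 2, 8 and 9 reads of Cnn1, corresponding to 0.0859, 0.314 and 0.343 CPM. In PVASCs its level was 128, 129.5 and 136 CPM and in Ab-ASCs 228, 181 and 190 CPM. Cnn1 was thus barely detected in Sub-ASCs and well expressed in both other groups. Its log2 fold change was 8.99 (SE 0.18, adjusted p = 4.53e-13) in PVASCs against Sub-ASCs and -0.60 (SE 0.09, adjusted p = 0.000188) against Ab-ASCs. The latter was the smallest estimate among the members, though not separable from those of Smtn and Lmod1. The size of the first fold rests on 19 reads in all of the Sub-ASC libraries (exact Poisson 95% interval 11.4 to 29.7, counting error only).

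The late markers stood in the same order of groups, and the log2 fold changes of Myh11 and Smtn against Sub-ASCs were smaller than those of the early markers. Myh11 (chr16:14194535-14291372, minus strand), the smooth muscle myosin heavy chain, had 7.77, 8.18 and 7.59 CPM in Sub-ASCs, 35.4, 37.7 and 37.2 CPM in PVASCs, and 87.8, 89.9 and 86.1 CPM in Ab-ASCs. It was thus detected in every Sub-ASC library, and replicates lay close together in all groups. The log2 fold change of Myh11 was 2.23 (SE 0.06, adjusted p = 1.13e-11) in PVASCs against Sub-ASCs and -1.26 (SE 0.06, adjusted p = 3.42e-09) against Ab-ASCs. Of its 6500 windows of 50 bases, 26 also occur in transcripts of other genes, among them the nonmuscle myosins Myh9 and Myh10.

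Smtn (chr11:3517523-3540612, minus strand) encodes smoothelin, an actin-binding protein of contractile SMCs. It had 25.8 to 27.7 CPM in Sub-ASCs, 84.4 to 89.6 CPM in PVASCs and 138 to 146 CPM in Ab-ASCs. Its log2 fold change of 1.69 (SE 0.06, adjusted p = 4.45e-11) in PVASCs against Sub-ASCs was smaller than that of every other tested member but Mylk. Lmod1 (chr1:135324807-135368065, plus strand) encodes leiomodin, which nucleates actin filaments in smooth muscle. Its level in Sub-ASCs was 1.85, 2.04 and 2.10 CPM, against 57.5, 60.6 and 57.3 CPM in PVASCs and 104, 86.8 and 89.4 CPM in Ab-ASCs. The resulting log2 fold change of 4.87 (SE 0.10, adjusted p = 6.13e-13) in PVASCs against Sub-ASCs could not be separated from that of the early marker Tagln, which ranged from 4.73 without Sub-ASC replicate 1 to 5.53 without Sub-ASC replicate 3. Against Ab-ASCs, Smtn and Lmod1 were lower in PVASCs by similar amounts, with log2 fold changes of -0.69 (SE 0.05, adjusted p = 5.00e-07) and -0.68 (SE 0.07, adjusted p = 8.80e-06).

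Actg2 (chr6:83512905-83536265, minus strand), the γ-actin of visceral smooth muscle, was nearly absent from Sub-ASCs, with 10, 5 and 23 reads, or 0.429, 0.197 and 0.877 CPM. It reached 128, 135 and 138 CPM in PVASCs and 260, 213 and 223 CPM in Ab-ASCs. By FPKM it was the second most abundant of the 10 genes in both of these groups. The log2 fold change was 8.03 (SE 0.20, adjusted p = 2.74e-12) in PVASCs against Sub-ASCs and 8.83 (SE 0.20, adjusted p = 1.07e-12) in Ab-ASCs against Sub-ASCs. Without Sub-ASC replicate 3, which held 23 of its 38 Sub-ASC reads, these values were 8.74 and 9.53. None of the 50-base windows of Actg2 occurred in transcripts of another gene, and those of Acta2 that did were 7 of 1986.

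Des (chr1:75360329-75368579, plus strand) encodes desmin, an intermediate filament of muscle and pericytes. Its level was 4.56 to 5.92 CPM in Sub-ASCs, 22.0 to 22.9 CPM in PVASCs and 65.1 to 75.9 CPM in Ab-ASCs. Mylk (chr16:34745210-35002420, plus strand) encodes the kinase that phosphorylates the myosin light chain and so starts contraction. It had 23.9 to 26.4 CPM in Sub-ASCs, 62.4 to 69.4 CPM in PVASCs and 237 to 248 CPM in Ab-ASCs. In PVASCs against Sub-ASCs, the log2 fold change was 2.09 (SE 0.10, adjusted p = 9.61e-10) for Des and 1.39 (SE 0.06, adjusted p = 5.93e-10) for Mylk. Both genes stood further below Ab-ASCs in PVASCs than the other members, with log2 fold changes of -1.64 (SE 0.08, adjusted p = 8.79e-09) and -1.87 (SE 0.06, adjusted p = 1.76e-10). For Mylk, the PVASC level was therefore nearer to that of Sub-ASCs than to that of Ab-ASCs on the log2 scale.

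Myocd (chr11:65176561-65269989, minus strand) encodes myocardin, one of the coactivators of SRF at contractile genes. Its reads numbered 3, 3 and 4 in Sub-ASC libraries, 8, 6 and 3 in PVASC libraries and 8, 13 and 6 in Ab-ASC libraries. It did not pass the filter on low counts and was not tested with the other members. As CPM, its level was 0.129, 0.118 and 0.153 in Sub-ASCs, 0.245, 0.203 and 0.0954 in PVASCs, and 0.430, 0.578 and 0.268 in Ab-ASCs. PVASC and Sub-ASC libraries overlapped, while the Ab-ASC libraries were highest, without overlap as CPM but overlapping PVASCs as FPKM. With reads pooled over a group, the level was 0.131 CPM (exact Poisson 95% interval 0.0626 to 0.240) in Sub-ASCs, 0.198 (0.115 to 0.317) in PVASCs and 0.397 (0.262 to 0.578) in Ab-ASCs. When the filter was omitted, the log2 fold change was 1.65 (adjusted p = 0.0309) in Ab-ASCs against Sub-ASCs, 0.44 (adjusted p = 0.663) in PVASCs against Sub-ASCs and -1.21 (adjusted p = 0.127) in PVASCs against Ab-ASCs. DESeq2 gave adjusted p = 0.0462, 0.665 and 0.154 for the same comparisons. Without Ab-ASC replicate 3, Myocd passed the filter and the difference between PVASCs and Ab-ASCs also passed the threshold (log2 fold change -1.47, adjusted p = 0.0242). Myocd passed the filter without Sub-ASC replicate 1 too, but there this difference did not pass (log2 fold change -1.21, adjusted p = 0.0523). At this depth, no difference in Myocd between PVASCs and Sub-ASCs could be detected.

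Ranked by FPKM, the members stood in a different order in each group. In Ab-ASCs, Acta2 (2321 ± 220, SD, n = 3) was followed by Actg2 (139 ± 11.1), Cnn1 (67.8 ± 6.71), Tagln (32.4 ± 4.005) and Smtn (30.1 ± 0.206), with Myh11 (10.8 ± 0.408) above Myocd only. Tagln and Smtn did not differ there beyond the spread of Tagln, but the place of Tagln depended on its length. Over its 639 exon bases outside other genes, which assumes that its reads fell on those bases alone, Tagln stood at 101 ± 12.5 FPKM in Ab-ASCs, above Smtn and Cnn1, and at 44.2 ± 4.05 in PVASCs, below Cnn1. By the listed lengths, PVASCs had the same first 3 genes, at 1536 ± 43.4, 93.7 ± 3.19 and 52.3 ± 1.67, and Myh11 was again the lowest but for Myocd, at 5.29 ± 0.160. Des (6.51 ± 0.151) and Mylk (6.40 ± 0.342) were not separable in PVASCs. In Sub-ASCs, Acta2 (29.0 ± 1.57) was still the highest member, but Smtn (6.04 ± 0.232), Mylk (2.19 ± 0.112), Des (1.37 ± 0.178) and Myh11 (1.01 ± 0.0408) came next, and Cnn1 (0.0886 ± 0.0504) was the lowest but for Myocd. The levels of Lmod1, Tagln and Actg2 in Sub-ASCs overlapped between libraries.

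Early and late markers were compared as the mean log2(FPKM + 1) of Acta2, Tagln and Cnn1 minus that of Myh11, Smtn and Lmod1, as a description without a test. The difference was 0.335, 0.294 and 0.463 in Sub-ASC libraries, 3.03, 2.97 and 2.99 in PVASC libraries and 3.10, 3.06 and 3.13 in Ab-ASC libraries. The mean of early markers exceeded that of late ones in all 9 libraries, by little in Sub-ASCs and by similar amounts in PVASCs and Ab-ASCs. Early markers averaged 1.83 ± 0.09 (SD, n = 3) in Sub-ASCs, 6.75 ± 0.02 in PVASCs and 7.44 ± 0.04 in Ab-ASCs, and late markers 1.47 ± 0.03, 3.75 ± 0.02 and 4.35 ± 0.03. By the listed lengths, Tagln and Cnn1 had lower mean FPKM than each late marker in Sub-ASCs, and Tagln stood below Smtn and Lmod1 in PVASCs. These places of Tagln depended on its length. Over its 639 unshared exon bases its mean was 44.2 ± 4.05 FPKM in PVASCs, above Smtn and Lmod1. In Sub-ASCs it was 1.22 ± 0.667, above Lmod1 and not separable from Myh11 (1.01 ± 0.0408). Both sets were higher in PVASCs and Ab-ASCs than in Sub-ASCs. The small excess in Sub-ASCs depended on its definition, since it was -0.08 with Myh11 and Smtn as the only late markers and -0.24 with a pseudocount of 0.1. In PVASCs and Ab-ASCs the lowest value under the alternatives tried was 2.98. Each alternative kept Acta2 as an early marker, so the excess without this gene was not examined. In PVASC libraries, log2(FPKM + 1) was 10.56 to 10.63 for Acta2, 3.82 to 4.06 for Tagln and 5.71 to 5.79 for Cnn1. In Ab-ASC libraries these values were 11.07 to 11.33, 4.85 to 5.18 and 6.00 to 6.26.

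Ratios of single markers gave more detail. The ratio of Acta2 to Myh11 (FPKM) was 28.8 ± 2.55 (SD, n = 3) in Sub-ASCs, 215 ± 27.4 in Ab-ASCs and 291 ± 7.21 in PVASCs, so that PVASCs had the most Acta2 per Myh11. The ratio of Smtn to Myh11 ran from 2.79 ± 0.113 in Ab-ASCs to 4.12 ± 0.239 in PVASCs and 5.98 ± 0.280 in Sub-ASCs. Acta2 to Actg2 was alike in Ab-ASCs (16.7 ± 0.248) and PVASCs (16.4 ± 0.658). In Sub-ASCs the same ratio was 129 ± 84.4, on very few Actg2 reads.

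Acta2 and Actg2 are 2 of the 6 conventional actin isoforms, and the others include Actb and Actg1, the cytoplasmic actins of all cells. Acta2 made up 6.12%, 5.57% and 5.80% of the summed actin FPKM in Sub-ASC libraries, 37.8%, 38.4% and 38.3% in PVASC libraries, and 42.7%, 40.5% and 40.8% in Ab-ASC libraries. Actg2 made up 0.0627% ± 0.0420 (SD, n = 3) in Sub-ASCs, 2.33% ± 0.105 in PVASCs and 2.47% ± 0.0345 in Ab-ASCs. By the listed lengths, the FPKM ratio of Acta2 to Actb was 0.106 ± 0.00692 in Sub-ASCs, 1.20 ± 0.00912 in PVASCs and 1.31 ± 0.0860 in Ab-ASCs. Which of these actins is higher in PVASCs depends on the gene length, because GENCODE M21 gives Acta2 2196 exon bases where the files list 1781, and a longer gene has a lower FPKM. The same length enters the actin shares and every ratio with Acta2. Actb itself was not level between groups. Its log2 fold change was 2.07 (SE 0.05, adjusted p = 2.31e-12) in PVASCs against Sub-ASCs and -0.70 (SE 0.05, adjusted p = 2.00e-07) against Ab-ASCs, and Actg1 stood at 2.35 (SE 0.06, adjusted p = 5.86e-12) and -0.53 (SE 0.06, adjusted p = 1.65e-05). Relative to Actb, the reference gene of the study's QPCR, the differences of Acta2 between groups are smaller than those in CPM.

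**Figure D3:**
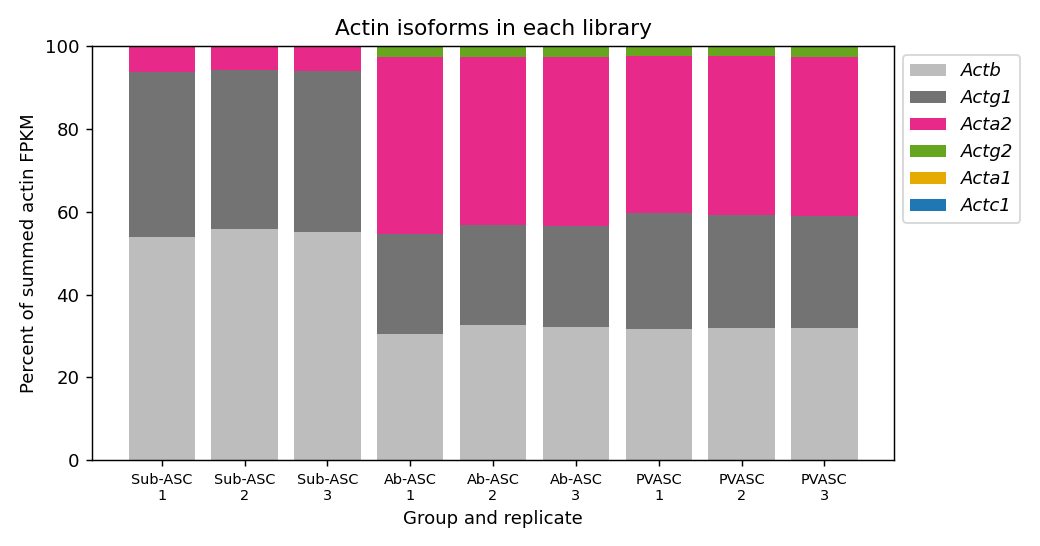
Share of the summed actin FPKM (percent) taken by each actin gene in the 9 libraries. Acta2 takes 38.1% on average in PVASCs and 41.3% in Ab-ASCs, and 5.83% in Sub-ASCs, where Actb takes 55.0%.

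A list of 28 further genes of the contractile apparatus, of which 27 were tested, moved with the members in part. In PVASCs against Sub-ASCs, 23 of 27 were higher and 0 lower, with a median log2 fold change of 1.76. In Ab-ASCs against Sub-ASCs, 24 were higher and 1 lower, with a median of 2.08. In PVASCs against Ab-ASCs, 5 were higher and 18 lower, with a median of -0.38. The shares of all genes higher and lower were 34.7% and 35.7%, 37% and 38.3%, and 24.7% and 32.1% in these comparisons. The list's medians were thus of the same sign as those of the members and nearer to 0.

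Genes of this list that act directly with the members included Myl9, the regulatory light chain that Mylk phosphorylates, with log2 fold changes of 5.16 (SE 0.10, adjusted p = 2.34e-13) in PVASCs against Sub-ASCs and -0.53 (SE 0.08, adjusted p = 0.000109) against Ab-ASCs. Tpm2, a tropomyosin that lies along actin filaments, had 12.5 to 14.6 CPM in Sub-ASCs, 536 to 572 in PVASCs and 954 to 1166 in Ab-ASCs, which gave a log2 fold change of 5.38 (SE 0.09, adjusted p = 1.32e-13) in PVASCs against Sub-ASCs. Cald1 (caldesmon), which inhibits the actin-myosin interaction, was 1.94 higher in PVASCs than in Sub-ASCs on the log2 scale (SE 0.07, adjusted p = 4.66e-11), while its log2 fold change of -0.14 (SE 0.06, adjusted p = 0.0870) against Ab-ASCs did not pass. Ppp1r14a, an inhibitor of myosin phosphatase, had log2 fold changes of 1.34 (SE 0.25, adjusted p = 0.000351) and -0.56 (SE 0.20, adjusted p = 0.0340). Kcnmb1, a potassium channel subunit characteristic of SMCs, was found with 3, 0 and 2 reads in Sub-ASC libraries, 113 to 118 reads in PVASCs and 139 to 167 in Ab-ASCs.

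Of the 5 genes of the list that were higher in PVASCs than in Ab-ASCs, Synm had the largest difference. Synm encodes an intermediate filament protein, a partner of desmin, and had 7.49 to 8.75 CPM in PVASCs, 2.24 to 2.71 in Sub-ASCs and 0.859 to 1.24 in Ab-ASCs. Its log2 fold change was 3.02 (SE 0.16, adjusted p = 1.86e-08) in PVASCs against Ab-ASCs, opposite in sign to that of Des. Synm was also the gene of the list that was lower in Ab-ASCs than in Sub-ASCs (-1.31, SE 0.19, adjusted p = 4.97e-05).

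**Figure D4:**
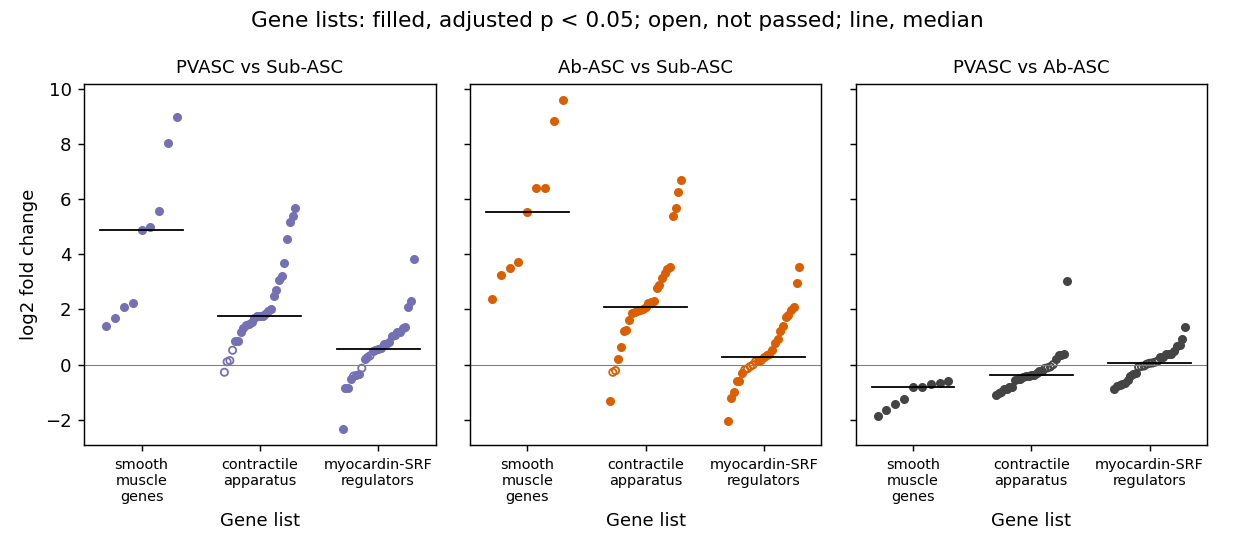
Log2 fold changes of the members, the further contractile apparatus genes and the regulators in the 3 comparisons. Each point is a gene, filled where the adjusted p was below 0.05, and the lines mark the medians, which are 4.87, 1.76 and 0.56 in PVASCs against Sub-ASCs.

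The upstream genes were described from a list of 27 regulators of SMC transcription, all tested. In PVASCs against Sub-ASCs, 18 were higher and 6 lower (median 0.56), and in Ab-ASCs against Sub-ASCs 15 were higher and 6 lower (median 0.27). In PVASCs against Ab-ASCs, 10 were higher and 9 lower (median 0.05). The shares over all genes are those given for the contractile apparatus list. Regulators thus did not share one direction as the members did.

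Srf, the DNA-binding partner of myocardin, followed the order of the members, at 12.4, 12.4 and 11.8 FPKM in Sub-ASCs, 35.6, 34.9 and 34.8 in PVASCs and 50.3, 47.1 and 50.2 in Ab-ASCs. Its log2 fold change was 1.37 (SE 0.06, adjusted p = 3.62e-10) in PVASCs against Sub-ASCs and -0.71 (SE 0.06, adjusted p = 4.97e-07) against Ab-ASCs. Mkl1, a myocardin-related coactivator (MRTF-A) that moves to the nucleus when free actin is low, also followed it, at 5.76 ± 0.189, 14.6 ± 0.505 and 21.5 ± 0.152 FPKM (SD, n = 3) in Sub-ASCs, PVASCs and Ab-ASCs. Its log2 fold changes were 1.19 (SE 0.06, adjusted p = 1.06e-09) and -0.78 (SE 0.05, adjusted p = 1.70e-07). Mkl2 (MRTF-B) did not follow it and was lower in PVASCs than in Sub-ASCs (-0.53, SE 0.08, adjusted p = 4.45e-05). Among the 3 coactivators, Mkl1 exceeded Myocd by an FPKM ratio of 287 ± 27.4 in Sub-ASCs, 383 ± 148 in Ab-ASCs and 553 ± 277 in PVASCs, with large errors because of the few reads of Myocd.

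Klf4, a repressor of SMC marker genes, was highest in PVASCs, with 25.3, 25.5 and 25.6 FPKM against 16.7, 16.8 and 16.4 in Ab-ASCs and 13.3, 13.5 and 14.0 in Sub-ASCs. The groups did not overlap, and the log2 fold change was 0.74 (SE 0.05, adjusted p = 6.98e-08) in PVASCs against Sub-ASCs and 0.39 (SE 0.05, adjusted p = 7.32e-05) against Ab-ASCs. In the TGF-β pathway, which induces the contractile program, Tgfb1 was higher in PVASCs than in Sub-ASCs (0.53, SE 0.06, adjusted p = 7.26e-06) and lower than in Ab-ASCs (-0.88, SE 0.06, adjusted p = 1.98e-07). Smad3, a transducer of its signal, was highest in PVASCs (1.05, SE 0.05, adjusted p = 1.48e-09, and 0.66, SE 0.05, adjusted p = 4.58e-07). The receptor Tgfbr2 went the other way from the members against Sub-ASCs, with -2.33 (SE 0.05, adjusted p = 7.31e-13) in PVASCs. Fhl2, a cofactor of SRF, had the largest log2 fold change of the list in PVASCs against Sub-ASCs (3.83, SE 0.07, adjusted p = 1.39e-13).

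**Figure D5:**
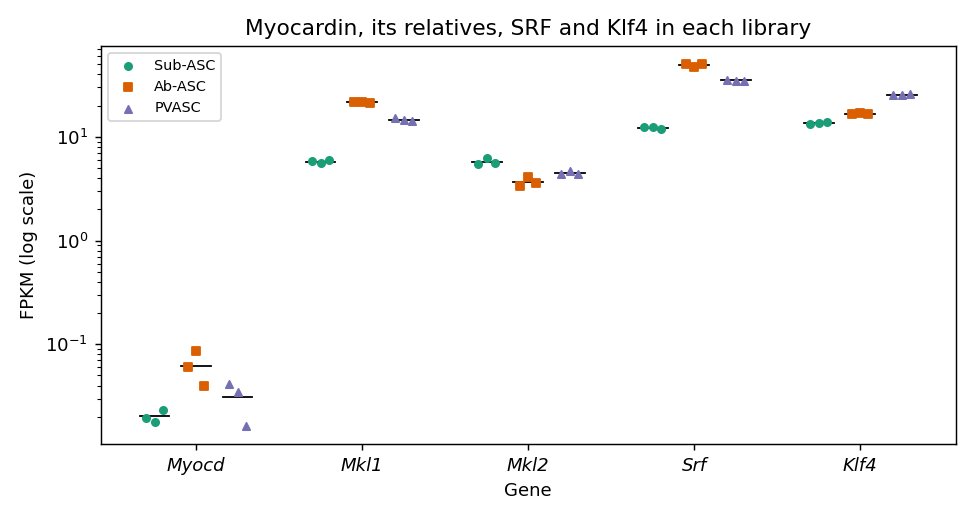
FPKM (log axis) of Myocd, its partner Srf, the related coactivators Mkl1 and Mkl2, and Klf4 in the 9 libraries. Each point is 1 library and each short line a group mean. Srf and Mkl1 stand in the order Sub-ASC, PVASC, Ab-ASC, Klf4 is highest in PVASCs and Myocd stays below 0.1.

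Markers of other cells and states differed between the same groups. Their counts stand against shares of all genes of 34.7% higher and 35.7% lower in PVASCs against Sub-ASCs, 24.7% and 32.1% in PVASCs against Ab-ASCs, and 37% and 38.3% where Ab-ASCs were set against Sub-ASCs. The 5 SMC markers that were not members (Kcnmb1, Ppp1r14a, Synpo2, Itga8 and Hspb6) summed to 25.8 to 27.7 CPM in Sub-ASCs, 40.2 to 42.1 in PVASCs and 44.7 to 45.5 in Ab-ASCs. They were mixed, with 3 of 5 higher and 0 lower in PVASCs against Sub-ASCs, and 1 higher (Itga8) and 2 lower in PVASCs against Ab-ASCs. The 7 myofibroblast markers summed to 7588 to 7739, 13721 to 14448 and 21108 to 22328 CPM, a sum to which Fn1 (fibronectin) contributed most. In PVASCs against Sub-ASCs, 5 of the 7 were higher and 2 lower (Fap and Col1a1), and in PVASCs against Ab-ASCs 3 were lower and 1 higher. The sum of the 7 pericyte markers stood in another order, at 158 to 166 CPM in Sub-ASCs, 266 to 276 in PVASCs and 63.8 to 70.8 in Ab-ASCs, but Abcc9 made up most of the Sub-ASC sum, and in PVASCs against Sub-ASCs 4 were higher and 2 lower. Of the 8 striated muscle markers, Myf5 and Myh6 were at 0 in every library, and the sum did not exceed 3.95 CPM in any. Mesothelial markers (7 genes) summed to 1.60 to 2.58 CPM in Sub-ASCs, with Lrrn4 and Upk1b at 0, 39.6 to 40.8 in PVASCs and 110 to 117 in Ab-ASCs. The sum followed the members' order, but Krt19 was higher in PVASCs than in Ab-ASCs, while the other 6 were lower in PVASCs, and Krt8 did not pass between PVASCs and Sub-ASCs. The 8 proliferation markers summed to 60.4 to 66.9 CPM in Sub-ASCs, 685 to 699 in PVASCs and 688 to 783 in Ab-ASCs, with 8 of 8 higher in PVASCs against Sub-ASCs, and 6 lower and 1 higher in PVASCs against Ab-ASCs. Endothelial markers (6 genes) were highest in PVASCs, at 507 to 517 CPM against 124 to 134 in Sub-ASCs and 47.8 to 49.6 in Ab-ASCs, and the 5 macrophage and blood markers ranged from 234 to 239 CPM in Sub-ASCs to 299 to 390 in Ab-ASCs, chiefly through Lyz2, while 3 of the 5 were lower in Ab-ASCs than in Sub-ASCs. The part of any of these in the differences of the members was not tested.

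The genes whose pattern was most like that of a member were found by Pearson's r of log2 CPM over the 9 libraries, among 16517 other genes. For Acta2 they were Ptprn (r = 0.9998), Tpm2 (r = 0.9997) and Tpm1 (r = 0.9997), and for Myh11 they were Lrrn4 (r = 0.9996), Mmd (r = 0.9996) and Fbn1 (r = 0.9995). Tpm1 was measured at 268 ± 6.74 CPM (SD, n = 3) in Sub-ASCs, 1503 ± 32.3 in PVASCs and 1957 ± 142 in Ab-ASCs. The libraries fall into 3 groups, and 1773 genes (10.7%) had r above 0.95 with Acta2 and 1745 (10.6%) with Myh11. Myocd had too few reads for such a ranking.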

How the data were processed

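Bulk mRNA sequencing of 3 Sub-ASC, 3 Ab-ASC and 3 PVASC libraries was analysed, grouped by the tissue in the labels. The authors deposited raw counts per gene, without normalization, with the length and position of each gene. The submitters' processing notes name CASAVA 1.8, Bowtie 0.12.2, featureCounts 1.5.0-p3 and the builds mm8 and mm10, without roles. Strandedness is not given in the sources used here. Of the 54532 listed genes, 53499 (98.1%) had the start and end of GENCODE M21 on GRCm38, and 23735 had no reads.

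FPKM was computed here from counts, the listed length and the library total. Counts were tested with the quasi-likelihood F-test of edgeR 4.0.16 in R 4.3.3, after filterByExpr (16526 genes kept) and TMM, with all 9 libraries in 1 fit without covariates and Benjamini-Hochberg adjustment over all genes tested (threshold 0.05). The study names no test for these counts. SEs were taken from the log2 fold change and its F. The procedure was also run on simulated data in which far fewer genes differed than here, so that run does not cover such broad differences. Alternatives were DESeq2 1.42.0, RLE factors, other filters, fits of 2 groups, a replicate block, a minimum log2 fold change of 1 in size, leaving out each replicate, and other definitions of early minus late.

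The members and lists were chosen with earlier results of these data known. All members were named. From the lists, genes past the threshold with the 3 largest log2 fold changes in each direction could be named, and direct partners of members (such as Srf, Mkl1, Mkl2, Klf4, Cald1, Myl9, Ppp1r14a, Tgfb1 and Smad3) were named whatever their value. Synpo2 and Hspb6 are named as SMC markers and Tpm1, Ptprn, Lrrn4, Mmd and Fbn1 by similarity.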

Additional observations from a re-analysis of the deposited data

How the results depend on the processing

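Of 399 log2 fold changes of the 9 tested members over 15 alternatives, 399 kept their direction and passed the threshold. When the log2 fold change also had to reach 1 in size, called members in PVASCs against Ab-ASCs were 4 in place of 9, contractile apparatus genes 3 in place of 23 and regulators 1 in place of 19, while regulators against Sub-ASCs were 10 in PVASCs in place of 24 and 10 in Ab-ASCs in place of 21. Over all genes, 15.4%, 32.2% and 37.8% passed this limit in PVASCs against Ab-ASCs and in PVASCs and Ab-ASCs against Sub-ASCs. Leaving out 1 library gave 9 called members in PVASCs against Sub-ASCs and 9 to 10 in the other comparisons, with Myocd as the tenth, 23 to 25, 19 to 23 and 24 to 27 contractile apparatus genes and 23 to 26, 18 to 19 and 20 to 23 regulators. Over all genes, 64.8% to 74.5%, 49.1% to 56.6% and 70.5% to 74.4% were called without 1 library. Here and below, triplets of counts and of such shares are for PVASCs against Sub-ASCs, then for PVASCs against Ab-ASCs and last for Ab-ASCs set against Sub-ASCs.

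Early minus late was 1.22, 3.77 and 3.50 in Sub-ASCs, Ab-ASCs and PVASCs with Acta2 and Tagln as early markers, -0.0795, 3.18 and 3.17 with Myh11 and Smtn as late markers, 3.90, 7.62 and 7.93 for Acta2 against Myh11, and -0.24, 3.15 and 3.08 with a pseudocount of 0.1. With Tagln's 639 exon bases outside other genes, an alternative chosen after seeing the data, it was 0.58, 3.63 and 3.52. Without 1 library it ranged from 0.31 to 0.40, 3.08 to 3.11 and 2.98 to 3.01.

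The replicate block called 9 members in each comparison, 24, 23 and 25 contractile apparatus genes and 24, 19 and 21 regulators, in that order, and changed no call of a member. Over all genes, 69.3%, 55.6% and 74.4% were called with this block. Same-numbered libraries deviated together with correlations of 0.0309, 0.0271 and 0.0226 between PVASCs and Sub-ASCs, -0.0259, -0.0189 and -0.00871 between PVASCs and Ab-ASCs, and 0.0163, 0.0950 and -0.0514 between Ab-ASCs and Sub-ASCs. None passed 0.1, so the numbers were not used as pairs. Every library correlated best with its own number only between PVASCs and Sub-ASCs. Those values were smaller than some between unlike numbers, such as 0.107 between Ab-ASC replicate 1 and Sub-ASC replicate 3, so no pairing is drawn from them.

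Depth limits Myocd in every group and Cnn1, Actg2 and Tagln in Sub-ASCs, where levels rest on 10 to 27, 19, 38 and 61 reads. Intervals given for reads cover counting error only.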
